A study of Equus caballus with 32 samples.

Results

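Ragulator is a complex of 5 small subunits on the outer face of the lysosome, and mTOR is the kinase that it helps to bring there. In equine tracheal wash (TW) derived cells, 10 genes of the 2 systems were examined: LAMTOR1, LAMTOR2, LAMTOR3, LAMTOR4 and LAMTOR5 for Ragulator, MTOR, RPTOR, RICTOR and MLST8 for the mTOR complexes, and RRAGA for the Rag GTPase between them. They were found by gene name in a table of 21357 genes, each name matched 1 entry, and all 10 passed the filter on low values, as did 14643 genes in all. The genes were chosen by the differences of the LAMTOR genes between training and rest, which were already known from these same libraries. Their training values are therefore given as a description without a test.

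Ragulator is anchored in the lysosomal membrane and holds the Rag GTPases there. When amino acids are plentiful, the active Rag GTPases bind Raptor and so recruit mTOR complex 1 (mTORC1) to the lysosome, where the kinase is switched on and promotes protein synthesis and growth while restraining autophagy. mTOR complex 2 (mTORC2) has Rictor in place of Raptor and acts on kinases such as AKT. These roles are known mainly from human and mouse cells, and macrophages, which make up much of a TW, are rich in lysosomes.

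The RNA came from TW derived cells of 16 male Thoroughbred racehorses from 1 yard and 1 trainer, and their ages are not in the labels. The T1 libraries were collected after about 2.5 months of race training and the T0 libraries after about 2 months of rest, which made 32 libraries. By the study's text, horses 2, 3 and 10 exceeded the neutrophil limit on T1 cytology (High N) and were set against the other 13. The 11 horses with haemosiderophages at T1, the sign of exercise-induced pulmonary haemorrhage (EIPH), were set against the unaffected horses 4, 9, 10, 11 and 16. Horse 10 was both High N and unaffected by EIPH. The horses were stabled at T1 and mostly at pasture for T0, so training cannot be told apart from housing or time. Values are log2 per gene and appear to be scaled between libraries, by a step that is not named. Counts were not part of the table, which leaves the depth behind a value unknown. Transcript length was not taken into account, so levels are compared between libraries and not between genes.

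A TW mixes immune cells and shed epithelium, and in such bulk samples fewer cells of a type and less RNA per cell cannot be told apart. The T1 libraries of horses 1, 14, 15 and 16 stood apart on the second principal component of all tested genes, at 40.5 to 86.6 against -37.4 to 23.4 for the other 28 libraries, and training values are given with and without these 4 horses. Markers of airway macrophages (14 of 15 listed genes were found) had a mean log2 value of 13.6 to 14.8 at T1 and 13.2 to 14.9 at T0. Those of ciliated epithelium (24 of 27 found) ranged from 7.70 to 11.6 at T1 and from 7.83 to 11.7 at T0, those of neutrophils (9 of 17 found) from 8.85 to 11.2 at T1 and from 8.49 to 9.73 at T0, and those of T cells (11 of 12 found) from 8.09 to 9.96 at T1 and from 8.31 to 9.64 at T0. None of the found markers of these 4 cell types was near 0. Ciliated markers changed by -0.23 ± 1.36 between the time points and neutrophil markers by 0.52 ± 0.74 (SD, n = 16), the neutrophil mean being higher at T1 in 12 horses. Markers of squamous epithelium (3 of 9 found) changed by 0.30 ± 1.69 and those of secretory epithelium (6 of 8 found, SCGB1A1 low) by 0.36 ± 1.52 (SD, n = 16). Neither was used as a covariate. Values of the 10 genes with marker means as covariates are given beside the training values.

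In training, most Ragulator transcripts averaged higher levels than at rest, while the mTOR complex transcripts did not share a direction. LAMTOR1, LAMTOR2 and LAMTOR4 were higher at T1 by 0.43 to 0.51 log2 units, LAMTOR5 was higher by 0.23, and LAMTOR3 had a difference of 0.02. RICTOR was lower at T1 (-0.42), MTOR and RPTOR had differences of -0.18 and -0.11 with 9 of 16 horses lower in each, and MLST8 had a difference of 0.41. The median difference was 0.43 over the 5 Ragulator genes, -0.15 over the 4 mTOR complex genes and -0.02 over all 14643 tested genes. Over all tested genes limma called 6.35% at an adjusted p under 0.05 (3.89% higher and 2.47% lower at T1). No such call is given for the 10 genes, because this contrast chose them.

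**Figure D1:**
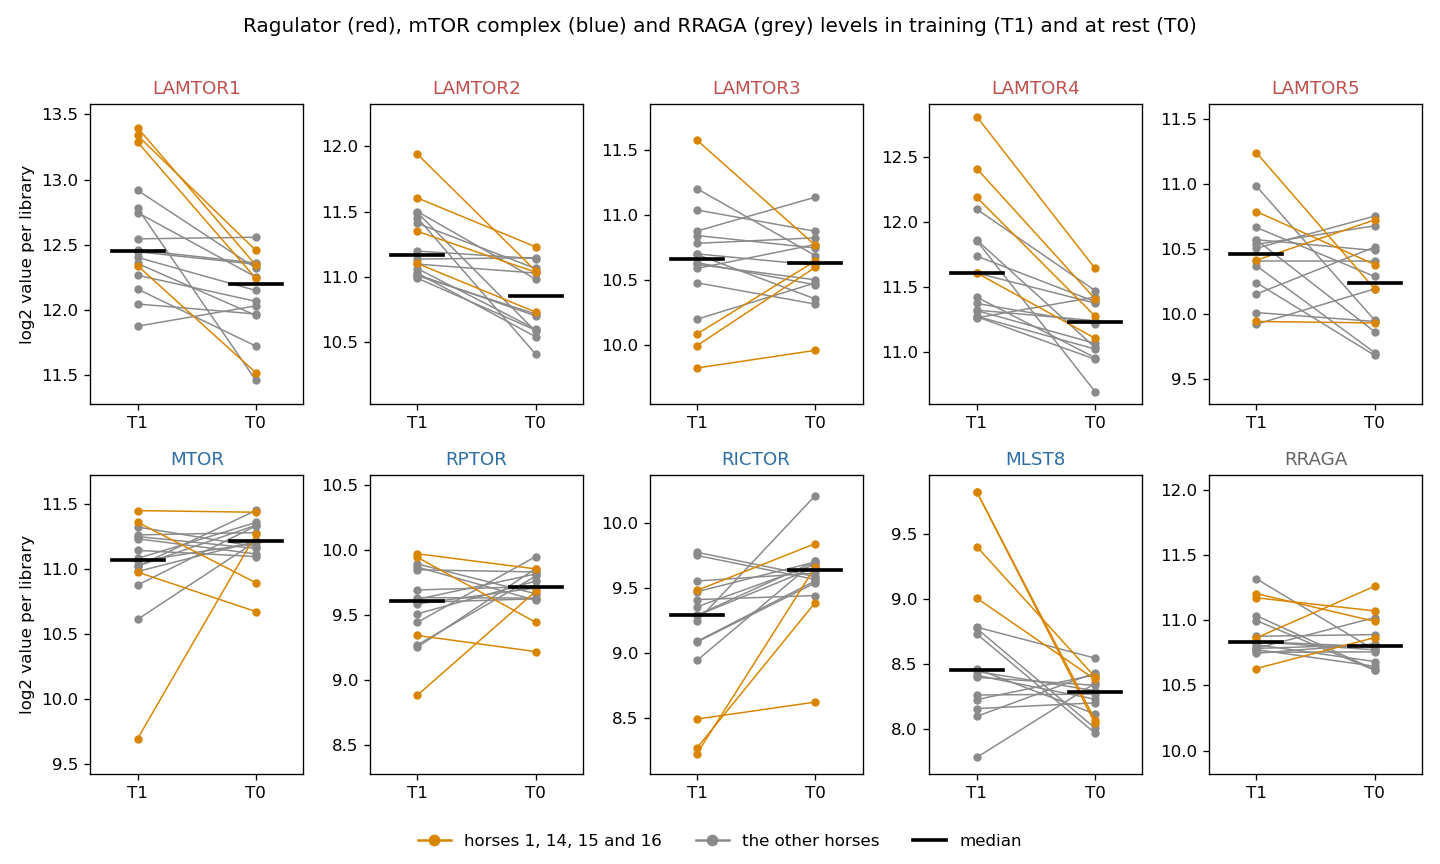
Level of each gene in training (T1, left) and at rest (T0, right) in 16 horses, as log2 value per library, with 1 line per horse. Black bars are medians, and all panels span the same number of log2 units. T1 and T0 values overlapped in all 10 genes, and horses 1, 14, 15 and 16 (orange) held the 4 highest T1 values of MLST8, 9.01 to 9.82.

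LAMTOR1 (ENSECAG00000022080), the lipid-anchored subunit that fixes Ragulator to the membrane and wraps around the other subunits, had a lowest, median and highest log2 value of 11.88, 12.45 and 13.40 at T1, against 11.46, 12.19 and 12.56 at T0. The T1 values of 6 horses lay above all T0 values, 3 of them horses 1, 14 and 15. The mean difference was 0.48 (SE 0.11, n = 16 horses), with 14 horses higher at T1 and only horses 2 and 9 lower. Without horses 1, 14, 15 and 16 it was 0.32, higher in 10 of 12 horses.

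LAMTOR2 (ENSECAG00000009193) and LAMTOR3 (ENSECAG00000013569) encode a dimer within Ragulator that also scaffolds MEK and ERK signalling. Their mean training differences were unlike, at 0.43 and 0.02. LAMTOR2 had a lowest, median and highest value of 10.99, 11.17 and 11.94 at T1, against 10.41, 10.85 and 11.23 at T0, a difference of 0.43 (SE 0.08). It was higher at T1 in 15 of 16 horses, with only horse 13 lower (-0.01), and the difference was 0.41 without the 4 horses set apart. LAMTOR3 had 9.82, 10.66 and 11.57 at T1, against 9.96, 10.63 and 11.14 at T0, and was higher in 9 horses and lower in 7. The T1 range of LAMTOR3 reached past the T0 range on both sides. Its largest decreases were in horses 1 (-0.60) and 15 (-0.56), and its largest increase was in horse 14 (0.81), all 3 among the 4 horses set apart. Without those 4 the LAMTOR3 difference was 0.07, and it was -0.03 without horse 14 alone, so LAMTOR3 has no settled direction.

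LAMTOR4 (ENSECAG00000006312) and LAMTOR5 (ENSECAG00000021821) encode the other dimer of Ragulator. LAMTOR4 had a lowest, median and highest value of 11.26, 11.61 and 12.81 at T1, against 10.70, 11.23 and 11.64 at T0. All T1 values lay above the T0 median, the difference was 0.51 (SE 0.10), and 15 of 16 horses were higher at T1. Horse 13 was the exception (-0.16), and the difference was 0.38 without horses 1, 14, 15 and 16. LAMTOR5 had 9.92, 10.46 and 11.24 at T1, against 9.68, 10.24 and 10.75 at T0, with a difference of 0.23 (SE 0.11). LAMTOR5 split the horses into 11 with higher and 5 with lower values at T1, its changes ran from -0.36 in horse 10 to 1.05 in horse 14, and the mean was 0.21 without the 4 horses set apart.

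MTOR (ENSECAG00000015638) encodes the kinase shared by both complexes. Its lowest, median and highest values were 9.70, 11.07 and 11.45 at T1, against 10.67, 11.21 and 11.45 at T0. The T1 library of horse 14 was far below the rest, with the next T1 value at 10.61 in horse 11. The difference was -0.18 (SE 0.11), with 9 horses lower and 7 higher at T1, and it was -0.17 without the 4 horses set apart.

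RPTOR (ENSECAG00000017757) encodes Raptor, which binds the Rag GTPases and substrates of mTORC1. Its lowest, median and highest values were 8.88, 9.61 and 9.97 at T1, against 9.22, 9.71 and 9.95 at T0, and the lowest T1 value was again that of horse 14. The difference was -0.11 (SE 0.09), with 9 horses lower and 7 higher, and -0.15 without the 4 horses set apart.

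RICTOR (ENSECAG00000000308), the subunit that defines mTORC2, had 8.23, 9.29 and 9.77 at T1, against 8.62, 9.63 and 10.21 at T0. The T1 libraries of horses 1, 14 and 16 lay below all T0 values. The difference was -0.42 (SE 0.11), 14 of 16 horses were lower at T1, and only horses 9 and 13 were higher. The largest decreases were -1.43 in horse 16 and -1.12 in horse 14, and the difference was -0.31 without the 4 horses set apart.

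MLST8 (ENSECAG00000010350), a subunit of both mTOR complexes that sits on the kinase domain, had 7.78, 8.45 and 9.82 at T1, against 7.97, 8.28 and 8.55 at T0. Its spread was wider at T1 (SD 0.59) than at T0 (SD 0.17). The T1 values of horses 1, 14, 15 and 16 were 9.82, 9.40, 9.82 and 9.01, all above the range of 7.78 to 8.78 in the other 12 horses. The difference was 0.41 (SE 0.16) in all horses and 0.11 without these 4, so most of the MLST8 difference rested on these 4 horses.

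RRAGA (ENSECAG00000005729) encodes RagA, a Rag GTPase that Ragulator holds on the lysosome. It had 10.63, 10.84 and 11.32 at T1, against 10.62, 10.81 and 11.26 at T0, and the T1 and T0 ranges nearly coincided. The difference was 0.06 (SE 0.07), with 9 horses higher and 7 lower at T1, and 0.11 without the 4 horses set apart.

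With the neutrophil, T cell and ciliated marker means as covariates, the training differences were 0.28 for LAMTOR1, 0.33 for LAMTOR2, 0.03 for LAMTOR3, 0.34 for LAMTOR4 and 0.17 for LAMTOR5. They were -0.25 for MTOR, -0.20 for RPTOR, -0.21 for RICTOR, 0.25 for MLST8 and 0.04 for RRAGA. All 10 kept the sign they had without the covariates, with smaller sizes for LAMTOR1, LAMTOR2, LAMTOR4, LAMTOR5, RICTOR, MLST8 and RRAGA and larger ones for MTOR, RPTOR and LAMTOR3. The macrophage marker mean was not among these covariates. In that fit limma called none of all tested genes (1641 had an unadjusted p under 0.05), and it called none without horses 1, 14, 15 and 16, chosen after the values were seen (2065 had an unadjusted p under 0.05).

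**Figure D2:**
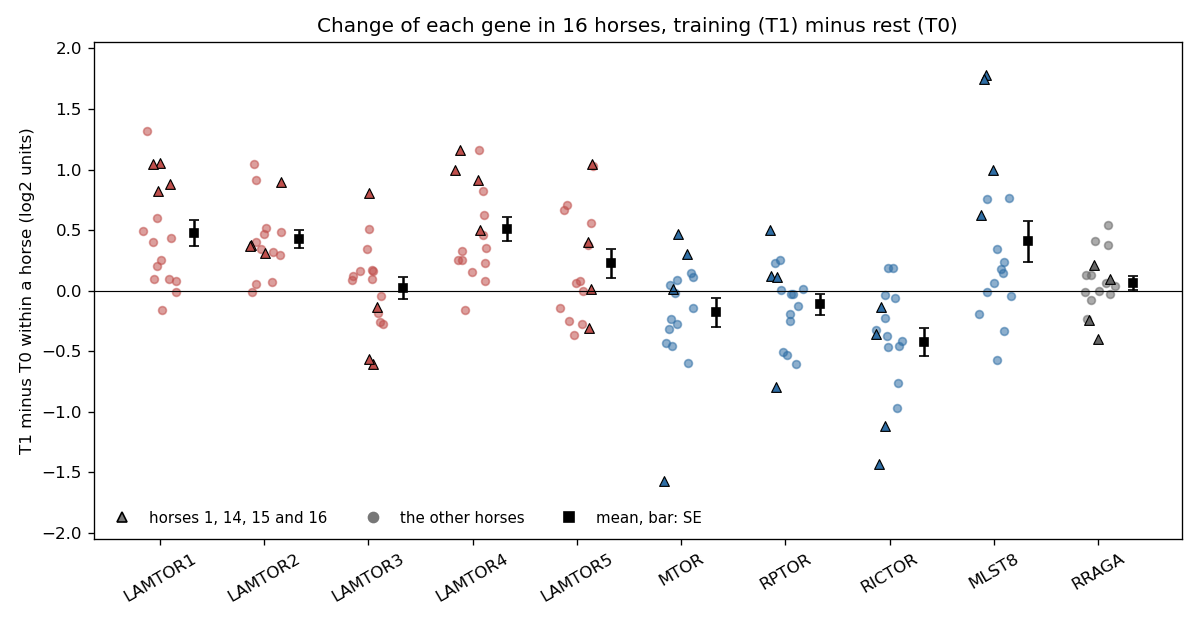
Change of each gene within a horse, T1 minus T0 in log2 units, for 16 horses. Triangles are horses 1, 14, 15 and 16, circles the other horses, and squares the mean with its SE. LAMTOR2 and LAMTOR4 were higher at T1 in 15 of 16 horses and RICTOR lower in 14, while MLST8 ran from -0.57 to 1.78.

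To contrast the 2 systems within each library, the mean log2 value of the 4 mTOR complex genes was subtracted from that of the 5 Ragulator genes. This contrast was 1.72 ± 0.44 at T1 and 1.31 ± 0.34 at T0 (SD, n = 16 each), and because genes differ in transcript length only its differences between libraries are read. The contrast was higher at T1 in 13 of 16 horses, by 0.41 ± 0.47 on average (SD), and lower in horses 1, 10 and 13. The genes were chosen by the LAMTOR differences between these same libraries. That choice itself favoured a higher T1 value, so the change is a description only. The highest value was 3.04 in the T1 library of horse 14, where Ragulator genes were at their highest mean (12.10) and mTOR complex genes at their lowest (9.06). The change was 0.41 without horses 1, 14, 15 and 16. It was 0.57 when MLST8, the mTOR complex gene with a higher mean at T1 (0.41), was left out. The Ragulator mean alone was higher at T1 in 15 of 16 horses (0.33 ± 0.30, SD), whereas the mTOR complex mean was lower in 10 (-0.08 ± 0.29, SD).

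**Figure D3:**
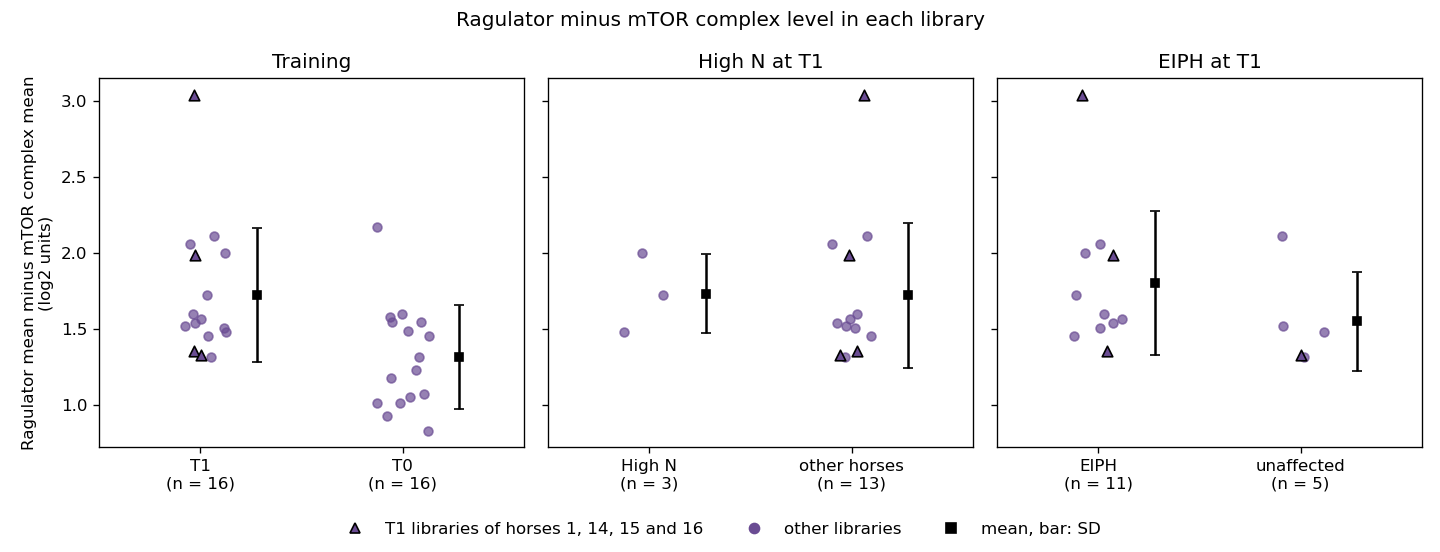
Mean of the 5 Ragulator genes minus mean of the 4 mTOR complex genes in each library, in log2 units, by time point, High N group and EIPH group. Squares are means with SD, and triangles are the T1 libraries of horses 1, 14, 15 and 16. The T1 mean was 1.72 and the T0 mean 1.31, while the means at T1 were 1.73 in High N and 1.72 in other horses. The genes were chosen with the LAMTOR training differences known, so the time point panel is a description.

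The High N comparison at T1, which the choice of genes did not use, asks whether horses with many airway neutrophils carried other levels of these transcripts. LAMTOR1 had 12.55, 12.78 and 12.75 in High N horses 2, 3 and 10, against a lowest, median and highest value of 11.88, 12.40 and 13.40 in the other 13. For LAMTOR4 the values were 12.10, 11.85 and 11.61 in High N horses, against 11.26, 11.42 and 12.81 in the others, and for RICTOR 9.08, 9.24 and 9.29 in High N horses, against 8.23, 9.35 and 9.77 in the others. In all 10 genes the High N values lay inside the range of the other horses at T1.

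The High N differences at T1 ran from -0.09 for MLST8 to 0.17 for LAMTOR4, and each of the 10 genes had an adjusted p of 0.9997 in limma. The 95% interval was -0.44 to 0.78 for LAMTOR4, -0.48 to 0.74 for LAMTOR1, -0.39 to 0.71 for MTOR, -0.60 to 0.69 for RICTOR and -0.88 to 0.70 for MLST8, so differences of the size seen between T1 and T0 lie within them. Of all 14630 tested genes 24 passed, all higher in High N horses, a background of 0.164%, and 406 had an unadjusted p under 0.05, none of them among the 10. The count of 24 fell to 0 without High N horse 2 (546 at an unadjusted p under 0.05) and to 2 without High N horse 3, and was 10 to 33 without any other single horse. Neutrophil markers were higher in High N horses (10.1 to 11.2) than in the others (8.85 to 10.3) at T1, with a small overlap of the ranges. Without horses 1, 14, 15 and 16, which are all in the other group, the difference was 0.43 for LAMTOR4 (SE 0.15, adjusted p = 0.272 in limma) and 0.36 for LAMTOR1 (SE 0.18, adjusted p = 0.432).

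The same horses were also compared at T0. The differences ran from -0.21 for MLST8 to 0.28 for RICTOR, and all 10 adjusted p-values were 0.9999 in limma, which called 0% of 14644 genes and gave 493 an unadjusted p under 0.05. High N horse 3 had the lowest T0 value of all 16 horses in LAMTOR1 (11.46), LAMTOR2 (10.41) and LAMTOR4 (10.70) and the highest in RICTOR (10.21). Without horse 3 the T0 difference was 0.29 for LAMTOR1, 0.20 for LAMTOR2 and 0.21 for LAMTOR4, against -0.02, -0.02 and -0.03 with it. The change from rest to training was also compared between High N and other horses as an interaction. The interaction ran from -0.24 for LAMTOR5 to 0.20 for LAMTOR4, with adjusted p-values of 0.9999, and limma called 0% of all genes, 172 of which had an unadjusted p under 0.05.

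In the EIPH comparison at T1, the differences were 0.20 to 0.43 for Ragulator genes and -0.06 to 0.25 for mTOR complex genes, and none passed the threshold. LAMTOR5 had a lowest, median and highest value of 10.01, 10.54 and 11.24 in the 11 EIPH horses, against 9.92, 10.24, 10.15, 10.57 and 9.94 in unaffected horses 4, 9, 10, 11 and 16. The LAMTOR5 difference was 0.42 (95% interval 0.05 to 0.79). It was the only one of the 10 with an unadjusted p under 0.05 (0.0273), and it did not pass after adjustment (0.219, limma). In the same fit 18.3% of all 14630 tested genes had an unadjusted p under 0.05, so LAMTOR5 is not read as standing out. LAMTOR1 had 12.16, 12.55 and 13.40 in EIPH horses, against 12.04, 11.88, 12.75, 12.45 and 12.34 in unaffected horses, a difference of 0.43 (95% interval -0.04 to 0.89, adjusted p = 0.313 in limma). EIPH and unaffected values overlapped in both genes and in the other 8.

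The other Ragulator genes had EIPH differences of 0.30 for LAMTOR3, 0.25 for LAMTOR4 and 0.20 for LAMTOR2, with intervals that span 0. Among mTOR complex genes MLST8 had 0.25 (95% interval -0.39 to 0.90), RICTOR 0.08 (-0.45 to 0.62), MTOR -0.06 (-0.52 to 0.41) and RPTOR -0.00 (-0.38 to 0.37), and RRAGA had -0.11 (-0.39 to 0.16). Shifting all libraries to 1 median added 0.12 to each of these differences, which put LAMTOR5 at 0.54, LAMTOR1 at 0.55, MTOR at 0.06, RPTOR at 0.11 and RRAGA at 0.00, so MTOR, RPTOR and RRAGA have no settled direction here, and again none of the 10 passed in limma (lowest adjusted p = 0.184). The median EIPH difference was 0.30 over the 5 Ragulator genes, 0.04 over the 4 mTOR complex genes and 0.02 over all genes. No tested gene passed in limma (0% of 14630), while 2680 had an unadjusted p under 0.05. Leaving out horses 1, 14, 15 and 16, of which horse 16 is unaffected, gave 0.28 for LAMTOR5, 0.21 for LAMTOR1, 0.02 for LAMTOR4, 0.13 for MTOR and 0.16 for RPTOR.

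Cell type markers moved with EIPH status at T1. Ciliated markers (24 of 27 found, none near 0) had a mean of 9.33 in EIPH horses, with a range of 7.70 to 10.9, and of 10.8 in unaffected horses, with a range of 9.41 to 11.6. Macrophage markers (14 of 15 found, none near 0) had a mean of 14.5 in EIPH horses (13.99 to 14.8) and of 13.9 in unaffected horses (13.6 to 14.4). With the ciliated marker mean as covariate the EIPH difference was 0.18 for LAMTOR5, 0.30 for LAMTOR1, 0.37 for LAMTOR4 and -0.02 for LAMTOR3, and the adjusted p was 0.999 for each of these 4 genes in limma.

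**Figure D4:**
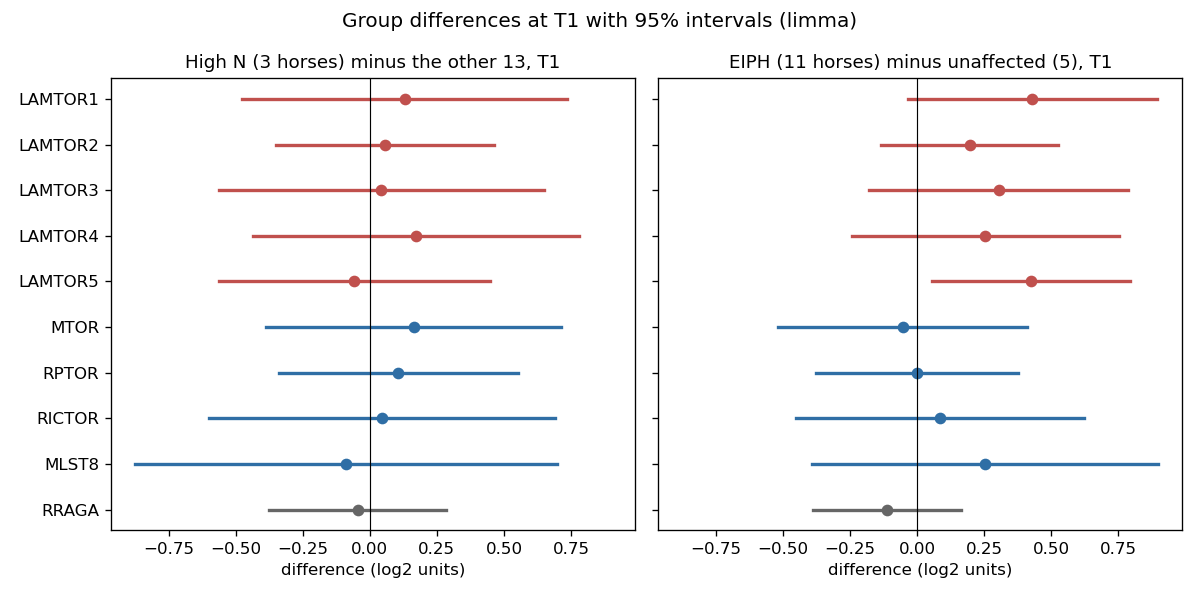
Difference of each gene between High N and other horses (left) and between EIPH and unaffected horses (right) at T1, in log2 units, with the 95% interval of limma. Red marks Ragulator, blue the mTOR complexes and grey RRAGA. Only the EIPH interval of LAMTOR5 (0.05 to 0.79) leaves out 0 before adjustment for the number of genes. In that EIPH comparison 18.3% of all tested genes had an unadjusted p under 0.05 in limma.

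At T0 the horses with EIPH at T1 differed from the unaffected ones by -0.10 for RICTOR to 0.21 for LAMTOR3, with adjusted p-values of at least 0.939 in limma, which called 0% of all genes and gave 172 an unadjusted p under 0.05. The interaction of training with EIPH ran from -0.07 for MTOR to 0.32 for LAMTOR5, with adjusted p-values of at least 0.982 and none of all genes passing (0%, with 218 at an unadjusted p under 0.05). LAMTOR4 illustrates the spread behind this: its change averaged 0.59 ± 0.45 in EIPH horses (n = 11) and 0.33 ± 0.17 in unaffected horses (SD, n = 5). The contrast of Ragulator minus mTOR complex mean was 1.80 ± 0.47 in EIPH horses and 1.55 ± 0.32 in unaffected horses at T1 (SD), a difference of 0.25 that was 0.07 without horses 1, 14, 15 and 16.

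Whether the genes of a complex varied together from horse to horse was examined within each time point, in 16 horses, with Pearson's r and Spearman's rho, permutation tests and adjustment over 150 relations. The 22 relations that passed both tests had unadjusted p-values of 1e-05, the smallest these permutations can give, to 0.00728. Pairs of Ragulator genes passed both tests in 5 of 10 cases at T1 (median r 0.64) and in 8 of 10 at T0 (median r 0.71). The share of passing pairs among other genes was not computed. The first principal component of all tested genes held 48.4% of the variance, so these counts are not read as particular to Ragulator. LAMTOR2 and LAMTOR4, from different dimers, had r = 0.84 and rho = 0.76 at T1 (adjusted permutation p = 0.00273 and 0.0141) and r = 0.91 and rho = 0.86 at T0 (0.0006 and 0.0045). Without the 2 horses farthest from the median of LAMTOR2, r was 0.80 at T1 and 0.87 at T0. LAMTOR3 at T1 had r = 0.13 to LAMTOR1, 0.39 to LAMTOR2, -0.09 to LAMTOR4 and 0.64 to LAMTOR5, against 0.75, 0.61, 0.48 and 0.66 at T0. Its r to LAMTOR5 was thus of like size at both time points over all 16 horses. Without the 2 horses farthest from the median of LAMTOR3, that r was 0.32 at T1 and 0.79 at T0. At T1 the relation to LAMTOR5 passed with r but not with rho (rho = 0.53, adjusted permutation p = 0.0427 and 0.140). In the 12 horses without horses 1, 14, 15 and 16, the r of LAMTOR3 to LAMTOR1 at T1 was 0.65. The difference between the time points in these correlations was not tested.

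Among the mTOR complex genes MTOR and RPTOR varied together, with r = 0.85 and rho = 0.84 at T1 (adjusted permutation p = 0.0006 and 0.00487) and r = 0.90 and rho = 0.69 at T0 (0.00175 and 0.0339). Leaving out the 2 horses farthest from the median of MTOR gave r = 0.74 at T1 and 0.64 at T0. No other pair of mTOR complex genes passed both tests, and RICTOR and MLST8 had r = -0.59 and rho = -0.61 at T1 (adjusted permutation p = 0.0610 and 0.0754) and r = -0.10 and rho = -0.43 at T0 (0.840 and 0.289), with r = -0.54 at T1 and -0.53 at T0 without the 2 horses farthest from the median of RICTOR.

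Between the complexes, none of 20 pairs passed both tests at T0, and 15 of the 20 had a negative r. The median r at T0 was -0.21, and -0.10 without horses 1, 14, 15 and 16. The share of negative pairs among other genes was not computed, so this count is not read as particular to the 2 complexes. At T1 the 2 pairs that passed were positive and involved MLST8: r was 0.88 and rho 0.71 with LAMTOR1 (adjusted permutation p = 0.0006 and 0.0261), and r was 0.82 and rho 0.79 with LAMTOR4 (0.00273 and 0.0141). In the 12 horses without horses 1, 14, 15 and 16, r was 0.80 for LAMTOR1 and 0.52 for LAMTOR4, and without the 2 horses farthest from the median of the LAMTOR gene it was 0.81 for LAMTOR1 and 0.68 for LAMTOR4. RICTOR and LAMTOR4 had r = -0.62 and rho = -0.65 at T1 (adjusted permutation p = 0.0511 and 0.0481) and r = -0.69 and rho = -0.47 at T0 (0.0213 and 0.237), so neither time point passed both. Without the 2 horses farthest from the median of LAMTOR4, that r was -0.30 at T1 and -0.23 at T0, whereas in the 12 horses without horses 1, 14, 15 and 16 it was -0.65 at T1 and -0.61 at T0, so its size depended on which horses were left out.

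**Figure D5:**
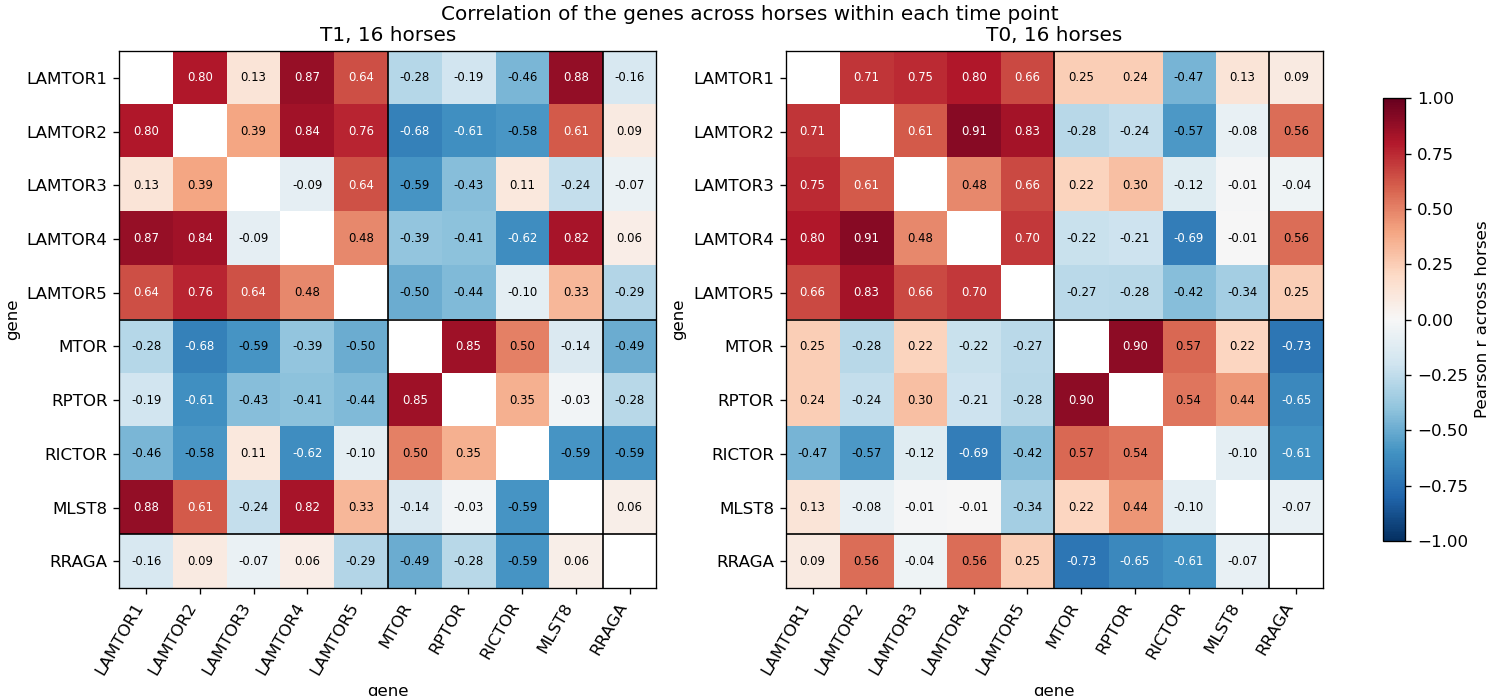
Pearson r of each pair of genes across 16 horses at T1 (left) and T0 (right), red for positive and blue for negative. Black lines separate the 5 Ragulator genes, the 4 mTOR complex genes and RRAGA. Ragulator genes form a positive block at T0, with LAMTOR2 and LAMTOR4 at 0.91, while LAMTOR3 and LAMTOR4 were at -0.09 at T1 and MLST8 was at 0.88 to LAMTOR1.

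Some Ragulator genes also varied with the cell type markers of the library. At T0 LAMTOR1 had r = 0.91 and rho = 0.76 to the macrophage marker mean (adjusted permutation p = 0.0006 and 0.0149) and r = -0.75 and rho = -0.74 to the ciliated marker mean (0.0075 and 0.0177). Without the 2 horses farthest from the median of the marker mean, these r values of LAMTOR1 were 0.79 and -0.75. LAMTOR3 had r = 0.76 and rho = 0.77 to the macrophage marker mean at T0 (adjusted permutation p = 0.00675 and 0.0141) and r = -0.68 and rho = -0.72 to the ciliated one (0.0213 and 0.0234), with 0.71 and -0.70 for r without the 2 farthest horses. At T1 the relation that passed was that of LAMTOR5 to the ciliated marker mean (r = -0.69, rho = -0.72, adjusted permutation p = 0.0213 and 0.0228, r = -0.55 without the 2 farthest horses). No mTOR complex gene passed both tests against any of the 3 marker means at either time point. MTOR at T0 passed with r but not with rho against the ciliated marker mean (r = -0.63, rho = -0.60, adjusted permutation p = 0.0362 and 0.0754). Its r was -0.49 without the 2 farthest horses. With the ciliated marker mean taken out, the median r among Ragulator pairs was 0.59 at T1 and 0.62 at T0. The macrophage marker mean was not taken out of these pairs.

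Over all 32 libraries and 12514 other genes with a symbol, the genes closest to the Ragulator mean were ATP6V0B and ITGA7 (r = 0.94 each), followed by ATP6V1F, LEPROTL1 and EMC6 (r = 0.93 each). ATP6V0B and ATP6V1F encode subunits of the vacuolar ATPase, the lysosomal proton pump, and ITGA7 an integrin. Closest to the mean of MTOR, RPTOR and RICTOR were MGA and NCOA2 (r = 0.96 each), HELZ (0.95), WDFY3 (0.94) and ZNF106 (0.94), which include the transcription factor MGA, the nuclear receptor coactivator NCOA2 and the autophagy scaffold WDFY3. Within a single time point these r values ran from 0.87 to 0.97. They are descriptions over libraries that share horses and appear to share a scaling step, and no background from other sets of genes was computed.

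The rest of the pathway was taken from a list of 66 genes, of which 56 were found and tested. The list was drawn up with earlier results of these data known, so its training values and calls are read as a description. At T1, 32 of the 56 were higher and 24 lower, the median difference was 0.08, and 4 passed in limma, 2 in each direction. That is 7.14%, near the 6.35% of all genes. With libraries shifted to 1 median none of the 56 passed. The count was also 0 when any of horses 1, 3, 4, 6, 8, 10, 11, 14, 15 and 16 was left out, 1 without horse 2 or horse 7, and 11 without horse 9.

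Among amino acid sensors and transporters, SLC3A2, the heavy chain of several amino acid transporters, rose at T1 by 0.51 (SE 0.15, adjusted p = 0.0491 in limma), and SESN3, a Sestrin that restrains mTORC1, fell by 0.49 (SE 0.13, adjusted p = 0.0415). The lysosomal arginine sensor SLC38A9 had -0.28 (adjusted p = 0.0917) and the arginine sensor CASTOR1 0.34 (adjusted p = 0.103). FNIP1, the folliculin partner that acts on RagC and RagD, fell by 0.29 (SE 0.08, adjusted p = 0.0415 in limma), and its paralog FNIP2 had -0.18. Of the lysosome-positioning complex BORC, which binds Ragulator, SNAPIN had 0.24 (adjusted p = 0.0596) and BORCS6 0.61 (adjusted p = 0.0656).

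Of the mTORC1 targets, the translation repressor EIF4EBP3 rose by 0.25 (SE 0.07, adjusted p = 0.0472 in limma), while EIF4EBP1 had 0.51 (adjusted p = 0.0561), the lysosomal transcription factor MITF -0.41 (adjusted p = 0.0613) and the autophagy initiation subunit RB1CC1 -0.57 (adjusted p = 0.0820). Of the listed mTOR complex subunits and inhibitors none passed: the mTORC2 subunit PRR5 had 0.79 (adjusted p = 0.0539), the mTORC1 inhibitor AKT1S1 0.49, the inhibitor DEPTOR -0.27 and the mTORC2 subunit MAPKAP1 -0.15. The other Rag GTPases had -0.01 for RRAGB, -0.05 for RRAGC and -0.11 for RRAGD.

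Upstream of the Rag GTPases, none of 6 genes of GATOR1, which inactivates RagA, and its anchor KICSTOR passed. NPRL2 had 0.28 (adjusted p = 0.0853), KPTN 0.19, ITFG2 0.14 and DEPDC5 -0.18. None of 4 genes of GATOR2, which opposes GATOR1, passed, with MIOS at -0.28 (adjusted p = 0.0571), WDR24 at 0.26, SEC13 at 0.20 and WDR59 at 0.01. The TSC complex, which switches off the mTORC1 activator Rheb, had TSC1 at -0.33 (adjusted p = 0.0728), TBC1D7 at 0.16 and TSC2 at -0.02. In the High N and EIPH comparisons at T1 and T0 and in both interactions, limma called none of the 56 pathway genes. An unadjusted p under 0.05 was found for 2 of them in High N at T1, 3 in EIPH at T1 and 1 in the interaction of training with High N. The shares of all tested genes at that level were 2.78%, 18.3% and 1.17%, in the same order. These counts are therefore not read as particular to the pathway.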

How the data were processed

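TW derived cells were sequenced as rRNA-depleted total RNA. The authors used cutadapt for trimming, FastQC and MultiQC for quality control, kallisto 0.46.0.1 for quantification on EquCab 3.0 transcripts, and DESeq2 for testing. The deposited table holds log2 values per gene. They appear to be scaled between libraries and pulled together at low expression, so changes of low genes may be understated. The table does not hold counts, so the authors' count test was replaced by limma 3.58.1 (R 4.3.3) with a mean-variance trend, as the design planned for log2 values. Of 21357 genes, 1899 at 0 in every library were left out, and a minimum mean log2 value of 3 was set. P-values were adjusted by Benjamini-Hochberg over all tested genes, with a threshold of 0.05. The main fits for training, High N at T1, EIPH at T1 and the interaction of training with EIPH were tested on simulated data. The other fits were not. Depth per library is unknown, so no counting interval is given.

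Training was fitted with the horse as block. The pairing comes from the horse numbers in the labels (same animal at T1 and T0), and the deviations of a horse's 2 libraries from the group means correlated with a median r of 0.35 (-0.51 to 0.79), over 0.1 in 12 of 16 horses. High N and EIPH groups come from the study's text and were compared within a time point and as interactions. Each horse is 1 animal. The genes and lists were chosen with earlier results of these data known. All members were named, as were up to 4 genes of each pathway role with the smallest p for training. The 5 genes most like the Ragulator mean, and the 5 most like the mean of MTOR, RPTOR and RICTOR (without MLST8), were also named. Pathway symbols without an entry were not used here. Correlations used 100000 permutations, whose smallest p is 1e-05. Alternatives covered the filter, scaling, trend, block, marker covariates and left-out horses. No genome or annotation was used here, so positions and gene length were not considered. Plots used matplotlib 3.10.9 under Python 3.11.15.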

Additional observations from a re-analysis of the deposited data

Results flagged for a closer look

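Within the 5 horses unaffected by EIPH, 26 sets of values were screened for a value far from the others, and 2 stood out, both from the T1 library of horse 11. LAMTOR2 was 11.50 in horse 11, with the nearest of the other unaffected horses at 11.10 and the lowest at 10.99. The Ragulator minus mTOR complex contrast was 2.11 in horse 11, with the nearest at 1.52 and the lowest at 1.32. Chance marks about 1 in 20 such sets, and both values share 1 library.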

How the results depend on the processing

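Of 1520 values of the 10 genes under alternatives, over all contrasts, 1428 kept their sign and 92 changed it, 7 of these by more than 1 SE.

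Of all genes, 930 passed for training with pairing by horse, against 454 with no filter, 519 with libraries shifted to 1 median, 15 with no replicate block, 0 with marker covariates in the block, 25 without the High N horses, 5 without the 4 horses with the largest ciliated change, 0 without horses 1, 14, 15 and 16 (chosen after seeing the data), and 77 (without horse 6) to 1847 (without horse 9) when 1 horse was left out. The training count was 1381 of 10842 genes with a minimum mean log2 value of 7, and 633 without the mean-variance trend. For High N at T1 the 24 genes became 13 with no filter, 47 without horses 1, 14, 15 and 16 and 0 (without horse 2) to 33 (without horse 15) when 1 horse was left out, and for EIPH at T1 the count of 0 became 2 with no filter. The cause was not tested.

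With the ciliated marker covariate, the EIPH difference at T1 was -0.0159 for LAMTOR3 and 0.0382 for RRAGA. Leaving out 1 horse at a time, the High N difference at T0 ran from -0.26 to 0.29 for LAMTOR1, from -0.13 to 0.20 for LAMTOR2 and from -0.17 to 0.21 for LAMTOR4, and the training by High N interaction from -0.21 to 0.46 for LAMTOR1 and from -0.21 to 0.28 for LAMTOR2. Of the 7 sign changes by more than 1 SE, 5 came without horse 3 and 2, those of LAMTOR3 and RRAGA, with the ciliated covariate. The planned correction for protein length was not run, since no annotation was used here. The table holds no counts, so what depth limits cannot be given.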
